A study of Homo sapiens with 23 samples.

Results

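The mitochondrial genome encodes 7 subunits of respiratory complex I, and the mRNAs of these 7 genes, MT-ND1, MT-ND2, MT-ND3, MT-ND4L, MT-ND4, MT-ND5 and MT-ND6, were followed here. They were taken by name as a complete family, with earlier results of these data known, and they were 7 of the 36085 genes to which a transcript of the deposited RNA-seq tables could be assigned. All 7 passed the filter on low counts that left 16371 genes for testing. RNA-seq was available from 6 libraries of SCi-NCCITs, a line made from NCCIT, an established human embryonal carcinoma line with stem-like properties. All 6 carried a tetracycline-inducible dCas9-KRAB, a catalytically dead Cas9 fused to a repressor domain, after stable clones had been selected with puromycin, and a constitutively expressed pair of sgRNAs against SINE-VNTR-Alu (SVA) transposons, selected with geneticin. The sgRNAs also match LTR5Hs elements, another transposon family. In 3 libraries the cells had received no doxycycline, and in 3 they had received doxycycline at 2 µg/mL over 72 hours, which induces dCas9-KRAB to repress the targeted elements. No RNA library came from doxycycline-treated cells without dCas9-KRAB or sgRNAs, so effects of doxycycline itself, of dCas9-KRAB and of repressing SVAs or LTR5Hs cannot be told apart. The labels do not say whether replicates were separate cultures, and p-values therefore measure only the spread between these libraries.

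Complex I, the NADH:ubiquinone oxidoreductase, takes electrons from NADH, passes them to ubiquinone and pumps protons across the inner mitochondrial membrane. The MT-ND subunits sit in its membrane arm, while the other subunits are encoded in the nucleus and imported. Both strands of the mitochondrial genome are transcribed into long polycistronic RNAs, from which most mRNAs are released by excision of the tRNAs between them. MT-ND6 is the only mRNA of the light-strand transcript, and all other mitochondrial mRNAs, MT-ND1 to MT-ND5 included, come from the heavy-strand transcript. Mitochondrial mRNAs of the heavy-strand transcript carry short poly(A) tails, whereas the MT-ND6 mRNA is known to have little or none, and these libraries were prepared from poly(A)-selected RNA. Doxycycline is a tetracycline and inhibits the mitochondrial ribosome.

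The ends of the 7 annotated transcripts are shown because they set what a poly(A) tail has to complete. Each is given 5′ to 3′ in the sense of its mRNA, with the bases of its last codon in capitals, from the mitochondrial sequence of GRCh37 as GENCODE uses it. The chrM of UCSC's hg19 is a different sequence, so the coordinates given here do not apply to it. The transcript lengths in the deposited tables equal those of this annotation.
MT-ND1: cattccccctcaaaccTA
MT-ND2: ttatactaataatcttaT
MT-ND3: gattagactgaaccgaaT
MT-ND4L: aacctactccaatgcTAA
MT-ND4: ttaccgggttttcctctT
MT-ND5: ctactcctaatcacaTAA
MT-ND6: attgctcgggggaatAGG
These 18 bases lie at chrM:4245-4262, chrM:5494-5511, chrM:10387-10404, chrM:10749-10766, chrM:12120-12137 and chrM:14131-14148 on the plus strand for MT-ND1, MT-ND2, MT-ND3, MT-ND4L, MT-ND4 and MT-ND5, and at chrM:14149-14166 on the minus strand for MT-ND6. In 4 members, MT-ND1, MT-ND2, MT-ND3 and MT-ND4, the last codon is incomplete, and a UAA stop arises only with the first bases of the poly(A) tail. MT-ND4L and MT-ND5 end in a complete TAA, and MT-ND6 ends in AGG.

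A pair of junctions between members is shown because reads cannot be divided there by position alone. In chrM:10742-10784, plus strand, the 7 bases that MT-ND4L and MT-ND4 share are in capitals. These overlapping frames stay on a single bicistronic mRNA. In chrM:14128-14169, again written on the plus strand, the end of MT-ND5 is in lower case and the part that encodes MT-ND6 on the opposite strand is in capitals.
MT-ND4L/MT-ND4 overlap: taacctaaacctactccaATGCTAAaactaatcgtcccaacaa
MT-ND5/MT-ND6 boundary: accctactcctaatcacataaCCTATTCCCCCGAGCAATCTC
The annotated ends of MT-ND5 and MT-ND6 are directly adjacent, with 0 bases between them. Their 3′ ends face each other from opposite strands. The library kit was directional, but the strand setting of the counting is not given in the sources used here, so reads from MT-ND6 mRNA and from heavy-strand RNA antisense to it cannot be told apart in the counts.

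All 7 genes are single annotated exons without introns. MT-ND1 (ENSG00000198888) covers chrM:3307-4262 and 956 bases, and MT-ND2 (ENSG00000198763) covers chrM:4470-5511 and 1042 bases. MT-ND3 (ENSG00000198840) is at chrM:10059-10404 with 346 bases, and MT-ND4L (ENSG00000212907), the shortest, is at chrM:10470-10766 with 297 bases. MT-ND4 (ENSG00000198886) covers chrM:10760-12137 and 1378 bases. MT-ND5 (ENSG00000198786), the longest, covers chrM:12337-14148 and 1812 bases. MT-ND6 (ENSG00000198695) covers 525 bases of the minus strand at chrM:14149-14673. The base composition separates the strands. The heavy-strand members hold 9.50 to 12.1% G and 29.5 to 36.0% C, and the MT-ND6 mRNA holds 35.6% G and 7.05% C.

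The libraries held between 15305909 and 49878613 estimated counts, and the 3 doxycycline libraries were all deeper (46562047 to 49878613) than the 3 without (15305909 to 45295427). ZNF10 is the gene whose KRAB domain is commonly used in such fusions. Counts assigned to it rose from 10.8 ± 0.882 to 398 ± 52.9 CPM (counts scaled to library size with TMM, SD, n = 3 each). The sources used here do not name the gene of the KRAB domain in this fusion. Reads from the fusion and from ZNF10 itself cannot be told apart in these counts. All 10 markers of pluripotent or embryonal carcinoma cells exceeded 1 TPM (kallisto's length-scaled level), with summed levels of 1529 to 1690 TPM without doxycycline and 1206 to 1354 TPM with it. The summed level of 4 endoderm markers was 0.456 to 0.820 and 1.27 to 1.34 TPM, that of 4 neuroectoderm markers 28.9 to 37.3 and 42.3 to 42.8 TPM, that of 4 mesoderm markers 106 to 146 and 112 to 124 TPM, and that of 4 fibroblast markers 11.7 to 16.8 and 13.3 to 15.3 TPM, without and with doxycycline, respectively. The number over 1 TPM was 0, 1, 2 and 4 in these lists, and none of their genes was at 0 in all libraries. The lower pluripotency sum and the higher endoderm and neuroectoderm sums moved with the treatment, but not through all their members. Of the 10 pluripotency markers, TDGF1, DNMT3B, NANOG and LIN28A were lower without overlap in TPM, and the others overlapped between the groups. Over all genes tested, 37% had CPM ranges apart in either direction, so this number is near the background. Of the endoderm markers, GATA6 rose (0.311 to 0.512 against 1.039 to 1.065 TPM), while GATA4 overlapped (0.145 to 0.264 against 0.081 to 0.183 TPM). TUBB3 made up most of the neuroectoderm sum and, like NEUROG2, was higher without overlap. Of the mesoderm markers, MIXL1 was higher (1.538 to 1.844 against 1.984 to 2.604 TPM) and KDR lower (0.797 to 1.071 against 0.417 to 0.557 TPM). The remaining markers of the endoderm, mesoderm, neuroectoderm and fibroblast lists overlapped. The part of these markers in the values below was not tested.

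MT-ND6 was far below the 6 heavy-strand members in every library. TPM divides by the effective length, which for paired reads is the transcript length less about the fragment length. It sets genes of different length on a common scale, but remains sensitive to the effective length of short transcripts and, in poly(A)-selected libraries, to how well an mRNA is captured. Without doxycycline, MT-ND4L had 8386 ± 1242 TPM, MT-ND1 5228 ± 568, MT-ND3 4637 ± 439, MT-ND4 4506 ± 639, MT-ND2 3492 ± 475, MT-ND5 1986 ± 305 and MT-ND6 119 ± 14.6 (mean ± SD, n = 3). In this order, MT-ND1 and MT-ND3, MT-ND3 and MT-ND4, and MT-ND4 and MT-ND2 overlapped in their ranges, and the other neighbours did not. With doxycycline, MT-ND4L had 10437 ± 1504 TPM, MT-ND3 7240 ± 130, MT-ND1 6094 ± 317, MT-ND4 5454 ± 542, MT-ND2 4400 ± 226, MT-ND5 2057 ± 127 and MT-ND6 157 ± 1.98. Here the only neighbours with overlapping ranges were MT-ND1 and MT-ND4. MT-ND3 thus moved from below MT-ND1 to above it on the TPM scale, and the remaining order was the same in both groups.

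The order of the short transcripts depended on the length used. The effective length of MT-ND4L was 122.7 to 136.1 of its 297 bases and that of MT-ND3 165.3 to 179.4 of 346, against 1187.6 to 1204.8 of 1378 for MT-ND4. When counts were divided by the annotated length instead, MT-ND1 came first without doxycycline at 3114 ± 263 CPM per kb, followed by MT-ND4 at 2876 ± 356, MT-ND4L at 2700 ± 257, MT-ND2 at 2120 ± 246, MT-ND3 at 1710 ± 81.1, MT-ND5 at 1314 ± 178 and MT-ND6 at 57.8 ± 8.02. On that scale MT-ND4L was no longer above MT-ND4, with which it shares an mRNA, and their ranges overlapped. With doxycycline, the first 5 members by annotated length, MT-ND1, MT-ND4, MT-ND4L, MT-ND3 and MT-ND2, formed a series in which each overlapped the next. MT-ND5 and MT-ND6 were the 2 lowest members under both lengths and in both groups.

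To ask whether the MT-ND mRNAs differed after doxycycline treatment, counts per gene were compared over all 16371 genes with edgeR's quasi-likelihood test and Benjamini-Hochberg adjustment, at a threshold of 0.05. Of the 7 members, 5 were higher with doxycycline, MT-ND1, MT-ND2, MT-ND3, MT-ND4L and MT-ND6, and none was called lower. Over all genes tested, 8.97% were called higher and 8.48% lower. The number of members called was 3 when untreated replicate 1, untreated replicate 3 or doxycycline replicate 3 was left out, and 2 without doxycycline replicate 2. The fitted log2 fold changes of the members lay between 0.10 and 0.72 with a median of 0.39, where the median over all genes was -0.0025. The members called higher were also those whose CPM ranges did not overlap between the groups, 5 of 7, where 19.2% of all genes had such ranges with the doxycycline libraries higher and 37% in either direction. The heavy-strand members derive from a common transcript and are not independent observations of the treatment. In bulk RNA, more cells with high mitochondrial RNA and more mitochondrial RNA per cell cannot be told apart.

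**Figure D1:**
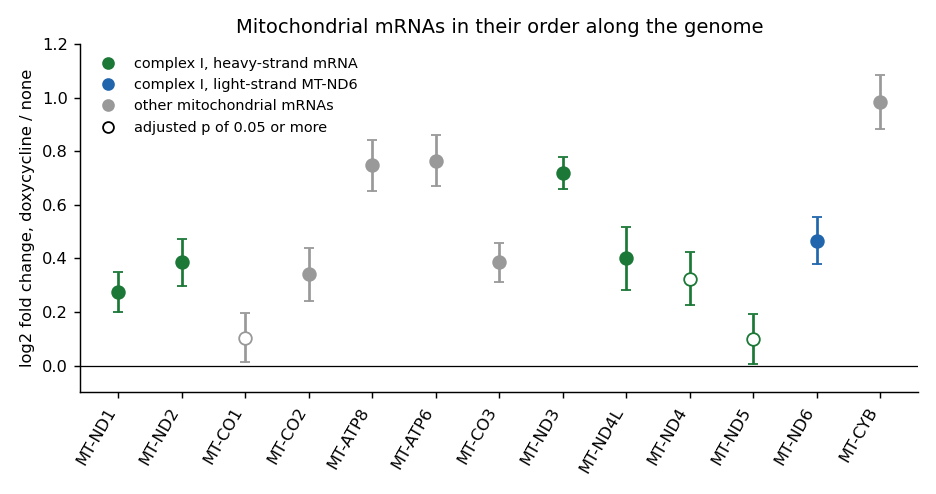
Log2 fold change, doxycycline against none, of the 13 mitochondrially encoded mRNAs in their order along the genome, from edgeR, with bars of ± 1 SE; open symbols did not pass an adjusted p of 0.05. MT-ND3 stands highest among the MT-ND genes at 0.72 and MT-ND5 lowest at 0.10, and MT-CYB is the highest of all at 0.98.

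MT-ND3, a small membrane subunit close to the ubiquinone-binding region, had the largest change of the 7. Its level was 4210, 5087 and 4614 TPM in replicates 1, 2 and 3 without doxycycline, and 7110, 7370 and 7241 TPM with it. Every doxycycline library was above every untreated library, and the doxycycline libraries lay close together. The mean rose from 620 ± 31.9 to 1020 ± 47.4 CPM (n = 3 each), a log2 fold change of 0.72 (SE 0.0598, edgeR adjusted p = 8.24e-05). The call held in all 15 alternative fits, with log2 fold changes of 0.65 to 0.74.

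MT-ND1 and MT-ND2, 2 of the core membrane subunits, are encoded next to each other at the start of the mRNA-coding part of the heavy-strand transcript. MT-ND1 was at 4775, 5865 and 5044 TPM without doxycycline and at 5733, 6328 and 6220 TPM with it. On the TPM scale its groups overlapped, since untreated replicate 2 exceeded doxycycline replicate 1, while in CPM they did not (2889 to 3419 against 3546 to 4026). Its log2 fold change was 0.27 (SE 0.0739, edgeR adjusted p = 0.0329). This call was lost when any library other than untreated replicate 2 was left out (adjusted p = 0.0647 and 0.109 without untreated replicates 1 and 3, and 0.0519, 0.125 and 0.0599 without doxycycline replicates 1, 2 and 3), with length-scaled counts (0.0576) and with limma on log2(TPM + 1) (0.142).

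MT-ND2 was at 2999, 3946 and 3531 TPM in the untreated libraries and at 4141, 4548 and 4513 TPM in the treated ones. The groups did not overlap, and untreated replicate 1 was the lowest library. Its log2 fold change was 0.39 (SE 0.0869, edgeR adjusted p = 0.0161). The call was lost without doxycycline replicate 2 (adjusted p = 0.0741) and with limma on log2(TPM + 1) (0.0652).

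MT-ND4L and MT-ND4 encode subunits of the membrane arm and are translated from overlapping frames of the same mRNA. MT-ND4L was at 7104, 9585 and 8470 TPM without doxycycline and at 8708, 11441 and 11162 TPM with it, so that doxycycline replicate 1 fell within the untreated range. In CPM its groups were apart, at 745 to 896 against 902 to 1252, and doxycycline replicate 1 was the lowest treated library. Its log2 fold change was 0.40 (SE 0.118, edgeR adjusted p = 0.0455). The call rested close to the threshold. It was lost without untreated replicates 1, 2 and 3 (adjusted p = 0.0966, 0.0804 and 0.0931) and without doxycycline replicates 2 and 3 (0.167 and 0.102), with length-scaled counts (0.0889) and with limma on log2(TPM + 1) (0.182).

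MT-ND4 was at 3852, 5130 and 4534 TPM without doxycycline and at 4845, 5628 and 5887 TPM with it. Untreated replicate 2 exceeded doxycycline replicate 1, so the groups overlapped. Its log2 fold change was 0.33 (SE 0.0992, 95% interval 0.13 to 0.52), with an edgeR adjusted p of 0.0516, just outside the threshold. It passed without untreated replicate 2 (adjusted p = 0.0381) or doxycycline replicate 1 (0.0397), with DESeq2 (0.00536), without the filter on low counts (0.0250), with at least 10 counts in every sample (0.0406) and with library sizes taken from nuclear-encoded genes (0.0450). The overlapping members MT-ND4L and MT-ND4 thus had similar fold changes on either side of the threshold, and the difference between them was examined within libraries below.

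MT-ND5, a large proton-pumping subunit at the far end of the membrane arm, was the member with the smallest change. It was at 1695, 2303 and 1960 TPM without doxycycline and at 1916, 2091 and 2163 TPM with it. The treated libraries all lay within the untreated range. The log2 fold change was 0.10 (SE 0.0941, 95% interval -0.085 to 0.28, edgeR adjusted p = 0.504). It passed in 0 of the 15 alternative fits, DESeq2 included, with adjusted p between 0.169 and 0.982, and its unadjusted p in the main comparison was 0.318.

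MT-ND6, the light-strand member and a subunit of the membrane arm, was counted with far fewer reads than the others. As said above, these counts may include heavy-strand RNA antisense to it. It had 538, 946 and 1241 estimated counts in untreated replicates 1, 2 and 3 and 1967, 2125 and 1986 in doxycycline replicates 1, 2 and 3. Exact 95% Poisson intervals, which cover counting error only, had a half-width of 8.55, 6.43 and 5.61% of the value in the untreated and 4.45, 4.28 and 4.42% in the treated libraries. The other members had between 8559 and 263284 counts in a library.

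Per length, MT-ND6 was at 135, 117 and 106 TPM without doxycycline and at 159, 155 and 156 TPM with it. The treated libraries were all above the untreated ones and nearly equal, and untreated replicate 1, the shallowest library, was the highest of its group. In CPM the mean rose from 31.8 ± 4.27 to 43.5 ± 1.15, a log2 fold change of 0.47 (SE 0.0869, edgeR adjusted p = 0.00686). The call held in all 15 alternative fits, with log2 fold changes of 0.40 to 0.57 and adjusted p up to 0.0417. Over the 6 libraries, the Pearson r of log2 CPM between MT-ND6 and the heavy-strand members ran from 0.059 with its neighbour MT-ND5 to 0.845 with MT-ND3, a description over libraries that share treatment and depth.

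To set MT-ND6 against the heavy-strand members free of library scaling, its TPM was divided by the summed TPM of the other 6 in each library. The share was 0.548, 0.366 and 0.377% in untreated replicates 1, 2 and 3 and 0.490, 0.415 and 0.419% in doxycycline replicates 1, 2 and 3. The treated values lay inside the untreated range, which was set by untreated replicate 1. On the log2 scale the ratio was -7.83 ± 0.134 with doxycycline and -7.89 ± 0.325 without, a difference of 0.06 (exact two-sided permutation test, 3 against 3, p = 0.8, adjusted p = 0.8 over 4 within-library values). Against 3 libraries, 3 libraries cannot give a p under 0.1. In estimated counts the difference was 0.15 (exact permutation p = 0.5), and against MT-ND5 alone it was 0.34 (exact permutation p = 0.3). The TPM difference was 0.24 without untreated replicate 1 and -0.047 without untreated replicate 2, so its direction depended on single libraries. A shift of the MT-ND6 level relative to the heavy-strand members was not detectable at this replication. The strand setting of the counting is not given, so MT-ND6 counts may include heavy-strand RNA antisense to it. Poly(A) selection also affects how much MT-ND6 mRNA was captured. The ratio is therefore not a clean contrast of light-strand and heavy-strand mRNA.

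The TPM ratio of MT-ND4L to MT-ND4 was 1.84, 1.87 and 1.87 in the untreated libraries and 1.80, 2.03 and 1.90 in the treated ones. The untreated libraries agreed closely and the treated ones spread around them. The difference in the log2 ratio was 0.04 (exact permutation p = 0.7, adjusted p = 0.8), and it turned to -0.011 when doxycycline replicate 2 was left out. The ratio of estimated counts, which is not per length, was 0.193 to 0.208 without doxycycline and 0.195 to 0.227 with it.

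The 7 MT-ND mRNAs together took 1.15, 1.43 and 1.30% of all estimated counts in the untreated libraries and 1.49, 1.71 and 1.67% in the treated ones. Every treated library was above every untreated one, and the difference was 0.329 percentage points (exact permutation p = 0.1, the smallest this design allows, adjusted p = 0.4). As a share of all TPM the difference was 0.748 percentage points (exact permutation p = 0.1). As a share of the counts of all 13 mitochondrially encoded mRNAs, the members made up 33.9, 34.1 and 33.2% without doxycycline and 33.2, 33.0 and 34.5% with it. That share differed by -0.181 percentage points (exact permutation p = 0.8, adjusted p = 0.8). In TPM the difference was -0.870 (exact permutation p = 0.1, again the smallest possible). There the groups were apart, at 36.0 to 36.8% without doxycycline and 35.1 to 35.9% with it, so this result depended on the unit. The difference in counts became 0.0034 without doxycycline replicate 1 and 0.084 without doxycycline replicate 2.

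**Figure D2:**
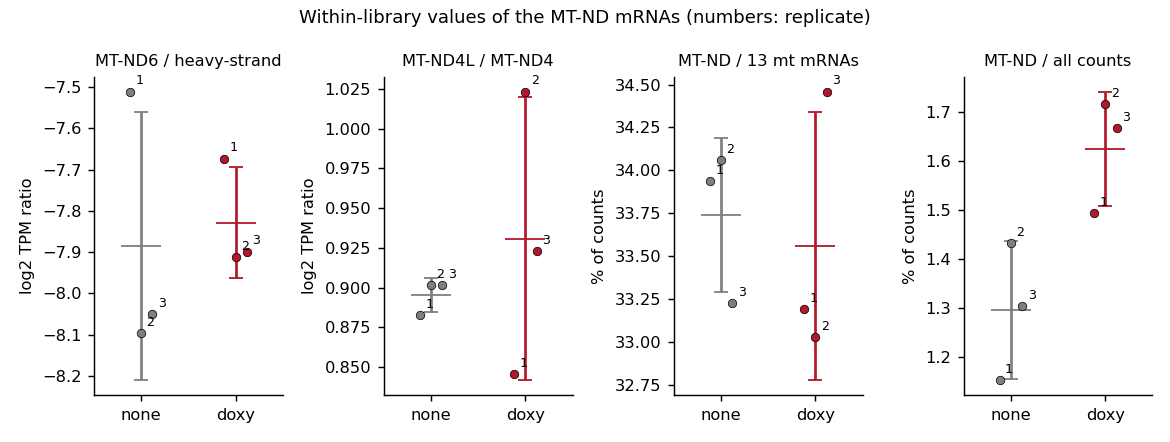
The 4 values computed within each library, by group; points are libraries with their replicate number. Of the 4 values as plotted, with both shares in counts, only the MT-ND share of all counts has its groups apart (1.15 to 1.43% against 1.49 to 1.71%). In the ratio of MT-ND6 to the heavy-strand members untreated replicate 1 is the highest library.

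The make-up of the MT-ND pool differed in MT-ND3, MT-ND5 and MT-ND1, which is given as a description since it was seen in the data and not tested. Of the summed TPM of the 7 members, MT-ND3 held 16.4 ± 0.561% without doxycycline and 20.3 ± 1.33% with it, with ranges of 15.9 to 17.0% and 19.4 to 21.8%. MT-ND5 held 6.99 ± 0.180 and 5.75 ± 0.159%, with ranges of 6.84 to 7.19% and 5.57 to 5.88%. MT-ND1 held 18.5 ± 0.730 and 17.0 ± 0.488%, also without overlap. These 3 shares were apart between the groups, MT-ND3 upwards and the others downwards. Shares of a fixed sum are tied together, so a lower share need not be a lower level. The mean TPM of MT-ND1 was 5228 without doxycycline and 6094 with it, and that of MT-ND5 was 1986 and 2057. The shares of MT-ND4L (29.5 ± 0.732 and 29.0 ± 2.03%), MT-ND4 (15.9 ± 0.276 and 15.2 ± 0.491%), MT-ND2 (12.3 ± 0.195 and 12.3 ± 0.347%) and MT-ND6 (0.428 ± 0.101 and 0.439 ± 0.0416%) overlapped.

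**Figure D3:**
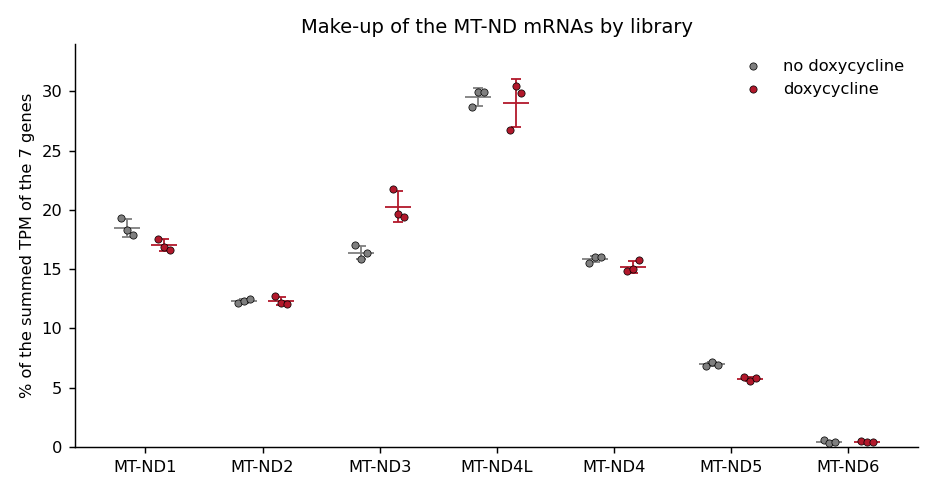
Share of each MT-ND mRNA in the summed TPM of the 7, in percent, for each library. MT-ND3 takes 15.9 to 17.0% without doxycycline and 19.4 to 21.8% with it, and MT-ND5 6.84 to 7.19% and 5.57 to 5.88%.

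The other 6 mitochondrially encoded mRNAs, all of the heavy strand, encode subunits of complexes III, IV and V. In the same comparison 5 of them were higher with doxycycline, where 8.97% of all genes were, and their median log2 fold change was 0.57. MT-CYB, the mitochondrial subunit of complex III, had the largest (0.98, SE 0.101, edgeR adjusted p = 0.000287). MT-ATP6 and MT-ATP8, overlapping frames of the ATP synthase, followed at 0.76 (SE 0.0956) and 0.75 (SE 0.0939). The cytochrome c oxidase subunits MT-CO3 and MT-CO2 rose by 0.39 (SE 0.0726) and 0.34 (SE 0.0980) on the log2 scale, and MT-CO1 was at 0.10 (SE 0.0902, edgeR adjusted p = 0.460). MT-CO2 lost its call in 6 of the 15 alternative fits, among them those without untreated replicates 1 and 3 (adjusted p = 0.0714 and 0.0978) and without doxycycline replicates 1 and 2 (0.0683 and 0.153). MT-ND5 and MT-CO1, the 2 mitochondrial mRNAs with the smallest changes, had the largest annotated lengths of the 13, at 1812 and 1542 bases. The next longest were MT-ND4 and MT-CYB, at 1378 and 1141 bases, with log2 fold changes of 0.33 and 0.98. A relation of change to length was not tested.

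Sequence copies of the MT-ND genes in the nuclear genome could take reads from the mitochondrial mRNAs or give reads to them. Among the genes with an assigned transcript, 217 carry a symbol that names them as such copies. They held at most 1.73% of the summed counts of a member and its copies, in the case of MT-ND2, at most 0.316% for MT-ND6 and 0.240% for MT-ND1, and at most 0.104% for the other members. MTND2P28, MTND1P23 and MTND4P12 averaged at least 1 CPM, at 39.8, 6.02 and 2.65 CPM, here without TMM. Of the copies, 5 passed the filter on low counts. edgeR called 0 of these, DESeq2 called 0, and 1 had an unadjusted p under 0.05. Adding the counts of the copies to their members left the number of members called at 5.

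The nuclear-encoded partners of these mRNAs were read from the same edgeR fit by lists chosen for their function. Of 37 nuclear complex I subunits, 12 were higher with doxycycline and none was called lower, where 8.97% of all genes were higher. The median log2 fold change of the list was 0.20, its range was -0.53 to 0.46, and 33 values were positive. The lowest value was that of NDUFA6, which was barely counted, at 0.456 and 0.299 CPM without and with doxycycline (SE 0.410, edgeR adjusted p = 0.403). The next lowest was NDUFA11 at -0.13. The largest changes among those called were in NDUFA1 (0.46, SE 0.0781, adjusted p = 0.00464), NDUFA7 (0.42, SE 0.0677, adjusted p = 0.00342) and NDUFB4 (0.36, SE 0.0730, adjusted p = 0.0102), accessory subunits without a catalytic role. The number called fell to 5, 6 and 5 without untreated replicate 2, doxycycline replicate 1 and doxycycline replicate 2, respectively. It was 8 without untreated replicate 3, 15 without untreated replicate 1 or doxycycline replicate 3, and 16 with DESeq2.

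Of 17 complex I assembly factors, 2 were higher and 1 was lower, with a median of 0.15. This is close to the share over all genes, of which 17.5% were called in either direction. NDUFAF7, a methyltransferase that modifies a complex I subunit, fell by 0.32 on the log2 scale (SE 0.0523, edgeR adjusted p = 0.00385). TIMMDC1 and COA1, which act in building the membrane arm, were at 0.23 (SE 0.0516) and 0.19 (SE 0.0498). The number called was 7 without untreated replicate 1, and 1 without untreated replicate 2, untreated replicate 3 or doxycycline replicate 2.

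Of 25 genes of mitochondrial transcription and RNA processing, 1 was higher and 2 were lower, with a median of -0.022, where 17.5% of all genes were called in either direction. The list as a whole thus did not stand above the background, and its called members are given as values only. LRPPRC, which binds and stabilizes heavy-strand mRNAs and aids their polyadenylation, fell from 574 ± 20.7 to 469 ± 24.9 CPM (log2 fold change -0.29, SE 0.0580, edgeR adjusted p = 0.00907). TFAM, which packages mitochondrial DNA and starts its transcription, fell by 0.21 (SE 0.0542, adjusted p = 0.0282), and TBRG4, an RNA-binding protein of the FASTK family, was at 0.19 (SE 0.0536, adjusted p = 0.0417). Between 1 and 5 genes of this list were called over the alternatives, with 1 without untreated replicates 2 or 3 or doxycycline replicates 1 or 2, and 5 with DESeq2.

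Of 10 genes of mitochondrial DNA maintenance, 2 were higher and 1 was lower, with a median of 0.019, where 8.97% of all genes were higher and 8.48% lower. DGUOK, a mitochondrial deoxynucleoside kinase, was at 0.29 (SE 0.0633, edgeR adjusted p = 0.0139) and POLG, the catalytic subunit of the mitochondrial DNA polymerase, at 0.21 (SE 0.0567, adjusted p = 0.0353). MGME1, a mitochondrial exonuclease, fell by 0.29 (SE 0.0575, adjusted p = 0.00897). Only 1 gene of the list was called without untreated replicate 2 or without doxycycline replicate 1.

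**Figure D4:**
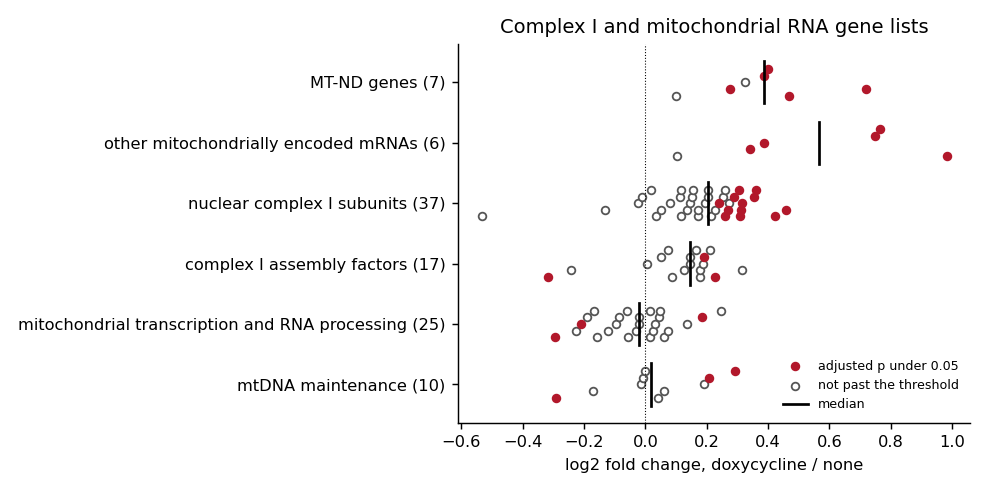
Log2 fold change, doxycycline against none, of every tested gene in each list (points), with genes past an adjusted p of 0.05 in red and the list median as a bar. The medians are 0.39 for the MT-ND genes, 0.57 for the other mitochondrially encoded mRNAs and 0.20 for the nuclear complex I subunits, and -0.022 for mitochondrial transcription and RNA processing.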

How the data were processed

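RNA was poly(A)-selected and made into directional libraries, sequenced as paired-end reads. For each of 188753 transcripts, the authors deposited an estimated count and a TPM value as kallisto gave them. The kallisto index, version and strand setting are not given in the sources used here. Of the transcripts, 166506 (88.2%) were assigned to a gene of GENCODE v44lift37, and the others stayed out of the tests. Sums of estimated counts per gene were rounded and entered into edgeR's quasi-likelihood test (version 4.0.16, R 4.3.3) after filterByExpr and TMM scaling, and p-values were adjusted over 16371 genes by the Benjamini-Hochberg method (threshold 0.05). TPM was used for levels between genes and for ratios within a library, which were compared by exact two-sided permutation tests with scipy 1.17.1 in Python 3.11.15. The authors' methods name DESeq2, which was run as an alternative.

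Other alternatives were DESeq2's size factors, an unfiltered table or a minimum of 10 counts in each library, a replicate block, length-scaled counts, library sizes from nuclear-encoded genes, limma 3.58.1 on log2(TPM + 1), added counts of nuclear copies, est_counts or TPM in the within-library values, and leaving out each library. Counts per annotated length, and the list counts under each alternative, were added after seeing the data. The members and lists were chosen with earlier results of these data known. Named genes were the 13 mitochondrial mRNAs, up to 3 called genes of largest change in each direction in each nuclear list, nuclear copies averaging at least 1 CPM, the 5 genes most like each of 2 profiles, and ZNF10. On simulated data for this comparison, 163 of 193 genes with a true log2 change of 1 were recovered among 16174 genes (84.5%), with 11 false calls among 174 (6.3%). All MT-ND members changed by less than that, and no smaller change was simulated. The recovery rate therefore does not apply to their fold changes. Between replicates, counts differed by 7.43 to 14.6 times counting variance (chi-square per gene), so no library was the same data deposited again. This does not show that they came from separate cultures. The ChIP-seq peak lists and the HiChIP table, with 12 per-sample columns and 4 of ChIP coverage, were not used here.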

Additional observations from a re-analysis of the deposited data

How the results depend on the processing

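The log2 fold changes of all 7 members were positive in all 15 alternative fits, and MT-ND3 and MT-ND6 passed the threshold in all of them, whereas MT-ND1 passed in 8, MT-ND2 in 13, MT-ND4L in 8, MT-ND4 in 7 and MT-ND5 in 0. The number of members called, 5 in the main comparison, was 3 with length-scaled counts and 2 with limma on log2(TPM + 1), and ran from 2 (without doxycycline replicate 2) to 5 when a library was left out. It was 6 with DESeq2, without the filter on low counts, with at least 10 counts in every sample and with library sizes from nuclear-encoded genes. The number of genes called, 2858, was 1726 with limma on log2(TPM + 1), which changes test, unit and scaling at once, and ran from 1396 (without doxycycline replicate 2) to 3259 (without untreated replicate 1). With length-scaled counts 1908 genes were called. Without a library, the log2 difference of MT-ND6 over the heavy-strand members ran from -0.047 to 0.24, with -0.025 without untreated replicate 3 and -0.020 without doxycycline replicate 1. That of MT-ND4L over MT-ND4 ran from -0.011 (without doxycycline replicate 2) to 0.078, and that of the MT-ND share of mitochondrial mRNA from -0.632 (without doxycycline replicate 3) to 0.084 percentage points (without doxycycline replicate 2), with 0.0034 without doxycycline replicate 1. Per annotated length, the MT-ND6 difference was 0.085 (p = 0.6), and that of MT-ND4L over MT-ND4 was 0.064 (p = 0.4), both by exact permutation.

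Deviations of same-numbered libraries from their group means correlated weakly (r = 0.13, 0.080 and -0.00094 for numbers 1, 2 and 3, over genes). Libraries of unlike number gave r from -0.13 to 0.060. These values do not settle whether the numbers mark pairs. The labels state no pairing, and the main comparison used none. With a replicate block 6 members and 3316 genes were called, MT-ND4 among them (edgeR adjusted p = 0.00744). Paired exact permutation tests gave p = 0.75, 0.75, 1 and 0.25 for the 4 within-library values. With 3 libraries a group, the unpaired exact test cannot go below 0.1, and the paired one cannot go below 0.25. Depth limits MT-ND6 most, at a counting error of up to 8.55% in untreated replicate 1.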

Other observations

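The nuclear-encoded genes whose log2 CPM followed the summed heavy-strand MT-ND counts most closely over the 6 libraries were EEF1AKMT3 (Pearson r = 0.995), DYNC2LI1 (0.993), FXYD6 (0.993), DHX35 (0.991) and NHLRC3 (0.991). None of these 5 passed the edgeR threshold themselves. The genes closest to MT-ND6 were CUEDC1 (r = 0.997), FUOM (0.995), GMPPB (0.993), AAMDC (0.993) and SUOX (0.993). Of these, CUEDC1, FUOM, AAMDC and SUOX were called higher with doxycycline (edgeR adjusted p = 0.0273, 0.0356, 0.00631 and 0.0496), and GMPPB was not (0.0666). Among 13861 candidates, 318 had an r over 0.9 with the heavy-strand sum and 919 with MT-ND6. The libraries share treatment and depth, all treated libraries being deeper, and these values are a description of 6 points. Over the same libraries MT-ND3 followed MT-CYB (r = 0.992), and MT-ND5 followed MT-CO1 (r = 0.951).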
